A study of Mus musculus with 8 samples.

Results

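A set of 10 genes of glucose uptake, glycolysis and lactate handling was followed in cultured immature oligodendrocytes (iOLs) with and without Med23, a subunit of the Mediator complex that links transcription factors to RNA polymerase II. The genes were set by name: the glucose transporter Slc2a1, the hexokinases Hk1 and Hk2, the regulatory enzyme Pfkfb3, the glycolytic enzyme Pgk1, the lactate dehydrogenase subunits Ldha and Ldhb, the pyruvate dehydrogenase kinase Pdk1, and the monocarboxylate transporters Slc16a1 and Slc16a3. They were chosen with earlier results of these data known. All 10 were among the 24346 genes of the deposited table and among the 12328 genes tested, which are those with a mean of at least 1 FPKM (fragments per kilobase of transcript, scaled to the mapped fragments of the library) over the libraries.

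RNA-seq was performed on 8 libraries of mouse iOLs, 4 Med23+/+ and 4 Med23-/-. Oligodendrocyte precursor cells (OPCs) were immunopanned with an antibody to CD140a (the Pdgfra protein) from brains at postnatal day 7. The authors first expanded them in growth medium with the mitogens PDGF-AA and NT-3, for a time they do not give. The cells were then kept for 1 day in 15 nM T3, the active thyroid hormone, with 10 ng/mL CNTF, a cytokine. The Med23-/- cells came from mice with floxed Med23 (Med23 fl/fl) and Cre expressed from Olig1, a gene of the oligodendrocyte lineage, and the Med23+/+ cells came from control mice without this deletion. The authors give the controls of this knockout as Med23 fl/fl littermates, with no Cre written. For the cultures they name only control mice. Whether the 4 replicates of a genotype were separate animals or cultures is not stated in the sources used here. Xist, a transcript of female cells, stood at 182 FPKM for replicate 1 of Med23+/+ and at 209 FPKM for replicate 2 of Med23-/-. All other libraries were under 1 FPKM. Within each genotype the libraries were thus not all repeats of a single RNA sample. The p-values measure the spread between these libraries, and how much of it is technical is not known. Med23 itself averaged 12.5 ± 0.225 FPKM (SD, n = 4) in Med23+/+ and 8.26 ± 0.247 FPKM (SD, n = 4) in Med23-/- libraries (log2 fold change -0.55, adjusted p = 0.000353), and a value per gene does not separate the floxed exons from the rest of the transcript.

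Glycolysis splits glucose into pyruvate in the cytosol. Pyruvate is then either used in the mitochondria, by a dehydrogenase complex that the Pdk kinases switch off, or reduced to lactate. The reduction is done by lactate dehydrogenase, a tetramer built from Ldha and Ldhb subunits. Lactate leaves or enters cells through monocarboxylate transporters, and oligodendrocytes are known for passing lactate to the axons they ensheath. Ldha, Hk2, Slc2a1, Pdk1, Pfkfb3, Pgk1 and Slc16a3 are textbook targets of the hypoxia-inducible factors and several of them also of Myc.

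Of the 10 genes, 5 were lower and 1 was higher in Med23-/- iOLs by limma at a Benjamini-Hochberg adjusted p under 0.05 over all genes tested, beside 14.1% of all genes tested that were lower, 15.9% that were higher and 30.0% in either direction. Hk2, Ldha, Slc2a1, Pfkfb3 and Slc16a1 were lower, Ldhb was higher, and Hk1, Pgk1, Pdk1 and Slc16a3 did not pass. Hk2 and Ldha also changed by more than 2-fold on the scale of the test, log2(FPKM + 1), while Ldhb stayed under that margin, against 1.75% of all genes tested that were lower, 2.98% that were higher and 4.73% in either direction. The median log2 fold change was -0.38 over the 10 genes and -0.01 over all genes tested. Since the genes were chosen with earlier results of these data known, these comparisons describe the set and do not test it. The 4 libraries of each genotype did not overlap for 5 genes lower in Med23-/- (Slc2a1, Hk2, Ldha, Slc16a1 and Slc16a3) and 1 higher (Ldhb), against 15.3% and 16.3% of all genes tested, or 31.6% in either direction. For Slc16a3 the gap was narrow, between 1.27 and 1.18 FPKM. That gene reached the minimum mean for testing only through its Med23+/+ level, so its place in this count is no independent result. In bulk RNA, fewer cells of a type and less RNA per cell cannot be told apart.

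**Figure D1:**
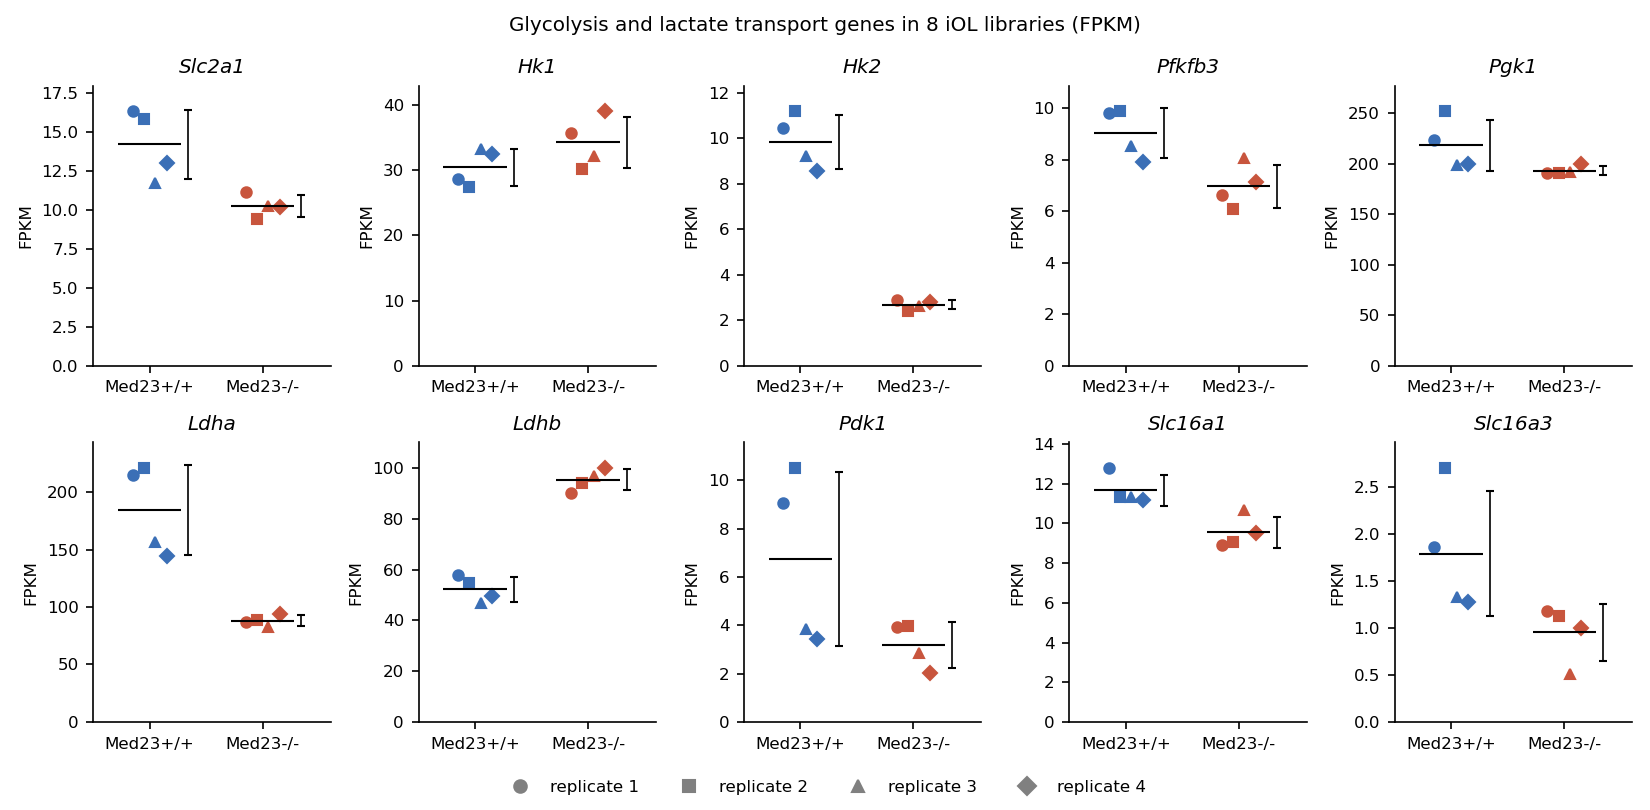
FPKM of each of the 10 genes in the 8 libraries (y axes start at 0), with the genotype on the x axis, a marker shape per replicate number, the mean as a line and the SD as a bar (n = 4). The Med23-/- libraries of Hk2 and Ldha sit below every Med23+/+ library, those of Ldhb sit above, and Pdk1 has 2 high and 2 low Med23+/+ libraries.

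The genes spanned a wide range of levels, which FPKM, a value per transcript length, allows to be set side by side. In Med23+/+ iOLs the order by mean FPKM was Pgk1, Ldha, Ldhb, Hk1, Slc2a1, Slc16a1, Hk2, Pfkfb3, Pdk1 and Slc16a3. The ranges of Pgk1 and Ldha overlapped there, as did those of each neighbouring pair from Slc2a1 to Pdk1, so these neighbours are not ordered beyond their spread. In Med23-/- iOLs the order became Pgk1, Ldhb, Ldha, Hk1, Slc2a1, Slc16a1, Pfkfb3, Pdk1, Hk2 and Slc16a3, and the overlapping neighbours were Ldhb with Ldha, Slc2a1 with Slc16a1, and Pdk1 with Hk2. Among all genes tested, mean Hk2 stood at the percentile 42.5 in Med23+/+ and at 11.8 in Med23-/- iOLs. Ldhb moved from the percentile 87.9 to 94.6, and Ldha from 97.1 to 94.2.

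Glucose enters these cells through facilitative transporters, of which Slc2a1 (GLUT1) is the widely used form. Slc2a1 (mm10 chr4:119108711-119137983, plus strand) measured 16.3, 15.8, 11.7 and 13.0 FPKM in Med23+/+ replicates 1 to 4 and 11.1, 9.41, 10.2 and 10.2 FPKM in Med23-/- replicates 1 to 4. All of the Med23-/- values lay under the Med23+/+ values. Mean Slc2a1 was 14.2 ± 2.22 FPKM in Med23+/+ and fell to 10.2 ± 0.712 FPKM (SD, n = 4), and the log2 fold change was -0.43 (SE 0.11, adjusted p = 0.0170).

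Slc2a3, the high-affinity transporter typical of neurons, was higher in Med23-/- iOLs, at 8.71 ± 0.588 and 12.4 ± 1.42 FPKM (log2 fold change 0.46, adjusted p = 0.00537). The share of Slc2a1 in the summed FPKM of Slc2a1 and Slc2a3 was 61.8 ± 4.46% (SD, n = 4) for Med23+/+ and 45.4 ± 3.53% (SD, n = 4) for Med23-/- cells. That difference of -16.3 percentage points had a two-sided exact permutation p of 0.0286, the smallest that 4 against 4 libraries allow, and an adjusted p of 0.0571 over the 6 shares of this kind compared. Of the 8 neuron markers, a list that includes Slc2a3 itself, 7 were higher in Med23-/- libraries by adjusted p, Slc2a3 among them. The summed level of all 8, Slc2a3 included, ran from 44.4 to 65.3 FPKM in Med23+/+ and from 85.2 to 189 FPKM in Med23-/- libraries. The part of neuronal cells in the Slc2a3 difference was not tested. Slc2a6, a lysosomal member of the transporter family, was lower, at 11.5 ± 1.62 and 6.08 ± 0.954 FPKM (log2 fold change -0.82, adjusted p = 0.00127). Of the 5 other glucose transporters tested, Slc2a3 and Slc2a6 were the only members called, beside 30.0% of all genes tested.

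Hexokinases trap glucose in the cell by phosphorylation, Hk1 as the constitutive brain form and Hk2 as the inducible form. Hk2 carried the largest difference and the smallest adjusted p of the 10 genes. Its FPKM was 10.5, 11.2, 9.20 and 8.55 in Med23+/+ replicates 1 to 4 and 2.89, 2.41, 2.62 and 2.81 in Med23-/- replicates 1 to 4. The lowest Med23+/+ library stood well above the highest Med23-/- library. Mean Hk2 was 9.85 ± 1.19 FPKM in Med23+/+ and 2.68 ± 0.213 FPKM in Med23-/- cells (SD over 4 libraries), which is 3.67-fold lower in FPKM and a log2 fold change of -1.55 (SE 0.10, adjusted p = 1.96e-05) on the log2(FPKM + 1) scale.

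Hk1 (mm10 chr10:62268855-62379908, minus strand) was the main hexokinase in both genotypes. Its values were 28.6, 27.5, 33.3 and 32.4 FPKM in Med23+/+ and 35.7, 30.1, 32.2 and 39.0 FPKM in Med23-/- replicates 1 to 4, and the genotypes overlapped. The log2 fold change of Hk1 was 0.16 with a 95% confidence interval from -0.06 to 0.39 (adjusted p = 0.254). Hk2 made up 24.6 ± 3.90% of the summed FPKM of both hexokinases in Med23+/+ and 7.28 ± 0.385% in Med23-/- cells (SD over 4 libraries). This share did not overlap between the genotypes (difference -17.3 percentage points, exact permutation p = 0.0286, adjusted over the 6 shares 0.0571), while the summed FPKM did, at 40.3 ± 1.77 and 36.9 ± 4.10.

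The bases just before the start sites of Hk2, Ldha and Ldhb are shown because these 3 genes differed most clearly, the first pair downwards and the last upwards. Each line gives the 150 bases before the RefSeq start site (GRCm38.p6, the build called mm10), 5′ to 3′ on the strand of the gene, and none of these bases lies in an exon that GENCODE vM21 gives to the gene. Capitals mark ACGTG (the core recognised by hypoxia-inducible factors), GCGTG (a variant of this core) and GGGCGG (the GC box bound by Sp1 and its relatives), each on either strand. The Hk2 stretch lies at chr6:82774455-82774604, minus strand, the Ldha stretch at chr7:46845654-46845803, plus strand, and the Ldhb stretch at chr6:142507958-142508107, minus strand.
Hk2: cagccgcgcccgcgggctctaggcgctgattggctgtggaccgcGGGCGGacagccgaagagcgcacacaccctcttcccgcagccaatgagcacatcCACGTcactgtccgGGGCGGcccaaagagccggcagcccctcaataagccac
Ldha: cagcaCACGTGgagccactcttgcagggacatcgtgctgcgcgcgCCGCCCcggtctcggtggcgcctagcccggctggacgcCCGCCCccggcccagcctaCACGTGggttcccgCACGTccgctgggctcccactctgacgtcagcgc
Ldhb: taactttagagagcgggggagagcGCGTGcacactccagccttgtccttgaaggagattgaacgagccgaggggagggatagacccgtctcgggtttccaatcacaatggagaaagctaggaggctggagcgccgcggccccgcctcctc
Ldha held CACGTG, the E-box form that Myc recognises, at 2 places here, whereas Ldhb held neither ACGTG nor GGGCGG. In windows of 300 bases around the start sites (250 before, 50 after), ACGTG was found for 8 of the 10 genes, all but Ldhb and Pdk1, and in 19.6% of 32851 promoters. GGGCGG was found for 8 of the 10, all but Hk1 and Ldhb, and in 35.7% of promoters. GCGTG was found for 7 of the 10 and in 32.4% of promoters, and CACGTG, which contains ACGTG on both strands, for Pfkfb3, Ldha and Slc16a1 and in 7.15% of promoters. Some genes have more than 1 start site and thus more windows, 14 in all for the 10 genes. Counted by window, as the promoter shares are, ACGTG and GGGCGG were each found in 9 of the 14, GCGTG in 8 and CACGTG in 3. A match is a description of these letters, not a binding site.

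Among the genes tested with the pattern over the 8 libraries most like that of Hk2, by the root mean square difference of their centred log2(FPKM + 1), were Mtap (0.0902), Wbscr17 (0.151), Cav1 (0.162) and Lgi3 (0.164). Mtap, which salvages methionine, had means of 66.1 ± 4.34 and 23.1 ± 1.20 FPKM in Med23+/+ and Med23-/- (SD, n = 4 each). Hk2 (mm10 chr6:82725025-82774454, minus strand) lies opposite an annotated antisense gene, and whether fragments were counted by strand is not stated.

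Pfkfb3 makes the allosteric activator of phosphofructokinase and so sets the pace of glycolysis. Pfkfb3 (mm10 chr2:11471433-11554077, minus strand) measured 9.81, 9.87, 8.54 and 7.90 FPKM in Med23+/+ and 6.61, 6.08, 8.05 and 7.13 FPKM in Med23-/- replicates 1 to 4. Med23-/- replicate 3 was above Med23+/+ replicate 4, so the genotypes overlapped by a single library. The means were 9.03 ± 0.971 and 6.97 ± 0.840 FPKM (SD over 4 libraries), and the log2 fold change was -0.33 (SE 0.11, adjusted p = 0.0380). The call held in 2 of 8 fits that each left out a library, those without Med23+/+ replicate 4 and without Med23-/- replicate 3, and adjusted p ran up to 0.0952 in the others. Its share among Pfkfb1 to Pfkfb4 was 32.9 ± 2.48% and 29.6 ± 4.34% and overlapped (exact permutation p = 0.257, adjusted over the 6 shares 0.257). Pfkfb2 was more abundant than Pfkfb3 in both genotypes, at 13.8 ± 0.473 and 12.7 ± 1.80 FPKM, and was not called (log2 fold change -0.12, adjusted p = 0.403). Tigar, a phosphatase that opposes the Pfkfb kinases, was lower in Med23-/- iOLs, at 8.15 ± 0.303 and 4.44 ± 0.376 FPKM (log2 fold change -0.75, adjusted p = 0.000211).

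Pgk1, which makes the first ATP of the pathway, was the most abundant of the 10 genes in both genotypes. Pgk1 (mm10 chrX:106187100-106203699, plus strand) measured 224, 252, 198 and 199 FPKM in Med23+/+ and 190.5, 190.2, 191 and 199.7 FPKM in Med23-/- replicates 1 to 4. Replicates 1 and 2 of Med23+/+ stood above all others, and the rest lay close together. The log2 fold change was -0.17 with a 95% confidence interval from -0.38 to 0.03 (adjusted p = 0.191).

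Among 16 other glycolytic enzymes tested, 5 were lower and 0 higher in Med23-/- iOLs by limma's adjusted p, with a median log2 fold change of -0.24. At an unadjusted p under 0.05, 8 were lower and 1 higher. By the adjusted p, 14.1% of all genes tested were lower and 15.9% higher. Pfkl, the liver-type phosphofructokinase, fell from 28.4 ± 5.84 to 13.4 ± 2.02 FPKM (log2 fold change -1.01, adjusted p = 0.00114), while its muscle and platelet forms Pfkm and Pfkp had log2 fold changes of 0.17 and 0.09 and were not called. Tpi1, the triose phosphate isomerase, fell from 84.9 ± 17.2 to 48.3 ± 3.46 FPKM (log2 fold change -0.78, adjusted p = 0.00225). Adpgk, Aldoa and Gpi1 were lower by -0.37, -0.34 and -0.30 on the log2 scale. Gapdh, the most abundant of the list at 533 ± 21.4 and 497 ± 40.8 FPKM, was not called (log2 fold change -0.10, adjusted p = 0.429). Pgk1, Ldha and Gapdh have processed pseudogene copies, and how fragments that fit several places were shared out could not be examined.

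Ldha favours the formation of lactate and Ldhb its return to pyruvate, and these subunits moved in opposite directions. Ldha (mm10 chr7:46841475-46855627, plus strand) measured 215, 221, 156 and 145 FPKM in Med23+/+ and 87.1, 89.2, 83.0 and 93.8 FPKM in Med23-/- replicates 1 to 4. Replicates 1 and 2 of Med23+/+ were the highest, and the lowest Med23+/+ library was still above every Med23-/- library. Mean Ldha fell from 184 ± 39.4 to 88.3 ± 4.47 FPKM (SD over 4 libraries), and the log2 fold change was -1.03 (SE 0.14, adjusted p = 0.000638). Without Med23+/+ replicate 1 the log2 fold change was -0.95 and without Med23+/+ replicate 2 it was -0.93, each under 2-fold and still past the adjusted p.

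Ldhb (mm10 chr6:142490249-142507957, minus strand) measured 57.8, 54.8, 46.9 and 49.6 FPKM in Med23+/+ and 90.4, 94.3, 96.8 and 100.2 FPKM in Med23-/- replicates 1 to 4. All Med23-/- values lay above the Med23+/+ values. Mean Ldhb rose from 52.3 ± 4.94 to 95.4 ± 4.15 FPKM (SD over 4 libraries), and the log2 fold change was 0.86 (SE 0.08, adjusted p = 0.000113).

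The ratio of Ldha to Ldhb FPKM was 3.72, 4.04, 3.34 and 2.91 in Med23+/+ replicates 1 to 4 and 0.964, 0.946, 0.857 and 0.936 in Med23-/- replicates 1 to 4. Ldha FPKM was thus well above Ldhb FPKM in each Med23+/+ library. In each Med23-/- library Ldhb was ahead by a small margin, and the ranges of both genes overlapped across these libraries. As a share of both, Ldha made up 77.6 ± 2.46% and 48.0 ± 1.29% (SD, n = 4 each), a difference of -29.5 percentage points (exact permutation p = 0.0286, adjusted over the 6 shares 0.0571). The summed FPKM of both subunits was 237 ± 43.9 in Med23+/+ and 184 ± 7.28 in Med23-/- iOLs, and the lowest Med23+/+ sum, 194.2, lay next to the highest Med23-/- sum, 194.0.

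**Figure D2:**
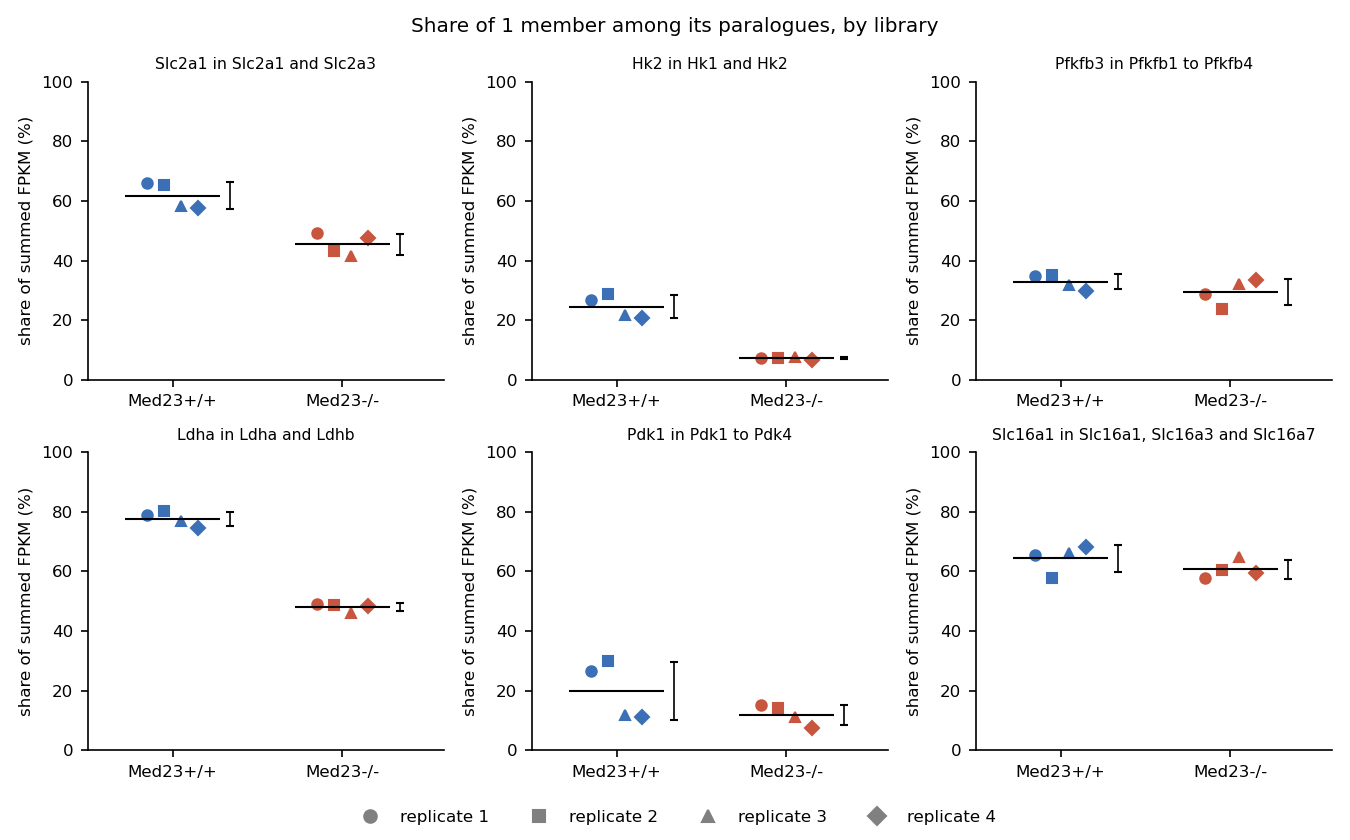
Share of a gene in the summed FPKM of its paralogues (y axis, percent, 0 to 100) in each library, with the genotype on the x axis, a marker shape per replicate number, the mean as a line and the SD as a bar (n = 4). The shares of Slc2a1, Hk2 and Ldha do not overlap between the genotypes, and those of Pfkfb3, Pdk1 and Slc16a1 do.

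Pdk1 phosphorylates and switches off pyruvate dehydrogenase, which limits the use of pyruvate in the mitochondria. Pdk1 (mm10 chr2:71873224-71903858, plus strand) measured 9.07, 10.5, 3.86 and 3.44 FPKM in Med23+/+ and 3.93, 3.96, 2.84 and 2.01 FPKM in Med23-/- replicates 1 to 4. The first pair of Med23+/+ libraries stood far above all others, and the second pair lay within the range of Med23-/-. Means were 6.72 ± 3.60 and 3.18 ± 0.941 FPKM (SD over 4 libraries), and the log2 fold change was -0.79 (95% confidence interval from -1.50 to -0.08, SE 0.32, adjusted p = 0.0893). Without Med23+/+ replicate 4 the adjusted p was 0.0403. The share of Pdk1 among Pdk1 to Pdk4 was 19.8 ± 9.78% and 11.9 ± 3.42% and overlapped (exact permutation p = 0.229, adjusted over the 6 shares 0.257).

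Of 13 other genes of mitochondrial pyruvate entry tested, 3 were lower and 1 was higher, with a median log2 fold change of -0.20. Over all genes tested, 14.1% were lower and 15.9% higher. Pdp2, a phosphatase that switches pyruvate dehydrogenase back on, fell from 15.0 ± 1.02 to 9.06 ± 0.701 FPKM (log2 fold change -0.67, adjusted p = 0.000387). Pdhb and Dlat, subunits of the dehydrogenase complex, were lower by -0.34 and -0.26 on the log2 scale (adjusted p = 0.0199 and 0.0481). Pcx, the pyruvate carboxylase, rose from 15.3 ± 1.54 to 19.6 ± 1.78 FPKM (log2 fold change 0.34, adjusted p = 0.0200). With a library left out the list gave 1 to 4 lower, 1 without Med23+/+ replicate 3, and 0 or 1 higher, since Pcx was not called without Med23+/+ replicate 3 or without replicate 4. Pdk2 and Pdk3 had log2 fold changes of -0.24 and -0.13 and were not called.

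Slc16a1 (MCT1) is the lactate carrier that oligodendrocytes are known for, and Slc16a3 (MCT4) is the low-affinity export form of glycolytic cells. Slc16a1 (mm10 chr3:104638668-104658462, plus strand) measured 12.8, 11.3, 11.3 and 11.2 FPKM in Med23+/+ and 8.92, 9.07, 10.7 and 9.52 FPKM in Med23-/- replicates 1 to 4. No Med23-/- library reached the lowest Med23+/+ library, although Med23-/- replicate 3 came close. The means were 11.7 ± 0.771 and 9.55 ± 0.799 FPKM (SD over 4 libraries), and the log2 fold change was -0.26 (SE 0.08, adjusted p = 0.0380). The call held in 1 of 8 fits that each left out a library, the fit without Med23-/- replicate 3, and adjusted p ran up to 0.0980 in the others.

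Slc16a3 (mm10 chr11:120948480-120960868, plus strand) measured 1.86, 2.71, 1.33 and 1.27 FPKM in Med23+/+ and 1.18, 1.13, 0.511 and 1.00 FPKM in Med23-/- replicates 1 to 4. The genotypes did not overlap, by a narrow gap, and the gene reached the minimum mean for testing through its Med23+/+ level. Mean Slc16a3 was 1.79 ± 0.665 and 0.955 ± 0.306 FPKM (SD over 4 libraries), and the log2 fold change was -0.50 (95% confidence interval from -0.93 to -0.08, SE 0.19, adjusted p = 0.0744). The share of Slc16a1 among Slc16a1, Slc16a3 and Slc16a7 was 64.4 ± 4.58% and 60.7 ± 3.07% and overlapped (exact permutation p = 0.257, adjusted over the 6 shares 0.257).

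Of 5 other lactate dehydrogenases and lactate carriers tested, 0 were lower and 0 higher by limma's adjusted p, beside 30.0% of all genes tested called. At an unadjusted p under 0.05, 1 was lower. Bsg, the chaperone that brings Slc16a1 and Slc16a3 to the cell surface, measured 157 ± 14.4 and 159 ± 6.59 FPKM (log2 fold change 0.02, 95% confidence interval from -0.17 to 0.21), and its sign turned in 3 of the alternative settings. Slc16a7, a high-affinity carrier, had a log2 fold change of 0.13 and was not called.

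**Figure D3:**
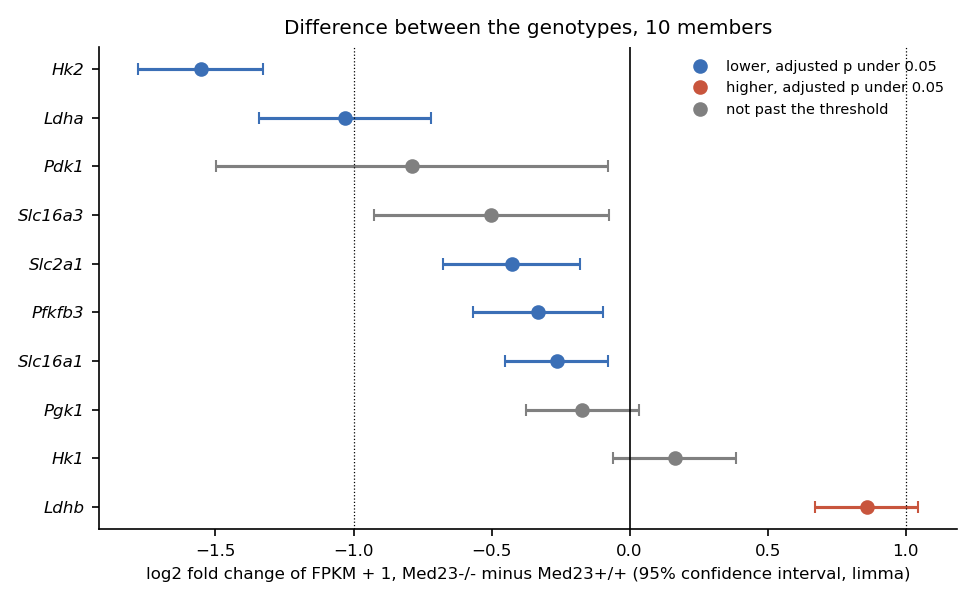
Log2 fold change of FPKM + 1, Med23-/- minus Med23+/+ (x axis), of the 10 genes (y axis), with 95% confidence intervals from limma, dotted lines at 2-fold and colour by the adjusted p. Hk2 and Ldha lie past the 2-fold line on the lower side, Ldhb lies at 0.86 on the higher side, and the interval of Pdk1 is the widest.

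The Med23+/+ libraries of these genes were not alike. Replicates 1 and 2 were both above replicates 3 and 4 in 9 of the 10 genes, all but Hk1, against 16.8% of all genes tested. In Med23-/- libraries this order held for 2 of the 10 genes, Pdk1 and Slc16a3, against 18.6% of all genes tested. It also held in Med23+/+ for 8 of 14 other hypoxia targets, for 6 of 16 other glycolytic enzymes and for 6 of 8 astrocyte markers, but for 0 of 15 growth regulators, 0 of 5 other glucose transporters, 1 of 13 genes of mitochondrial pyruvate entry and 2 of 10 shuttle genes. Of the 8 astrocyte markers, Gfap, Aqp4 and Fgfr3 were lower in Med23-/- libraries by -1.70, -1.29 and -2.05 on the log2 scale (adjusted p = 0.0222, 0.0120 and 2.26e-05) and Slc1a2 was higher by 0.67 (adjusted p = 0.0222). Their summed level ran from 81.3 to 149 FPKM in Med23+/+ and from 60.2 to 104 FPKM in Med23-/- libraries. The part of other cells in these values was not tested.

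Hypoxia-inducible factors are the best known activators of these genes, so their own genes and further targets were read in the same fit. Hif1a fell from 87.2 ± 8.67 to 59.3 ± 7.05 FPKM (log2 fold change -0.55, adjusted p = 0.00385). Epas1, which encodes HIF-2 alpha, rose from 2.38 ± 0.278 to 5.65 ± 1.08 FPKM (log2 fold change 0.96, adjusted p = 0.000728), and Egln3, a hydroxylase that marks these factors for destruction and is itself a target, fell from 4.53 ± 1.27 to 2.21 ± 0.425 FPKM (log2 fold change -0.77, adjusted p = 0.00919). Of 9 hypoxia pathway regulators tested, 2 were lower and 1 was higher, with a median log2 fold change of 0.00. Over all genes tested, 14.1% were lower and 15.9% higher.

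Among 14 further hypoxia targets tested, 4 were lower and 1 was higher, with a median log2 fold change of -0.31. The shares over all genes tested were 14.1% lower and 15.9% higher. The lower genes include Egln3, which is also counted among the regulators above. Pfkfb4, a Pfkfb enzyme, is in this list too and was not called. Vegfa, the angiogenic growth factor, measured 14.9, 16.3, 8.78 and 8.04 FPKM in Med23+/+ and 4.93, 3.96, 6.23 and 4.93 FPKM in Med23-/- replicates 1 to 4. Its log2 fold change was -1.07 (SE 0.22, adjusted p = 0.00538), and as for Ldha and Pdk1 the first pair of Med23+/+ libraries was highest. P4ha1, a collagen prolyl hydroxylase, and Ddit4, an inhibitor of mTOR signalling, were lower by -0.78 and -0.57 on the log2 scale (adjusted p = 0.00100 and 0.0190), and the lipid droplet gene Plin2 was higher by 0.46 (adjusted p = 0.0273), a call that held in 4 of 8 fits with a library left out and was lost without Med23+/+ replicate 3 or 4 or Med23-/- replicate 1 or 4.

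**Figure D4:**
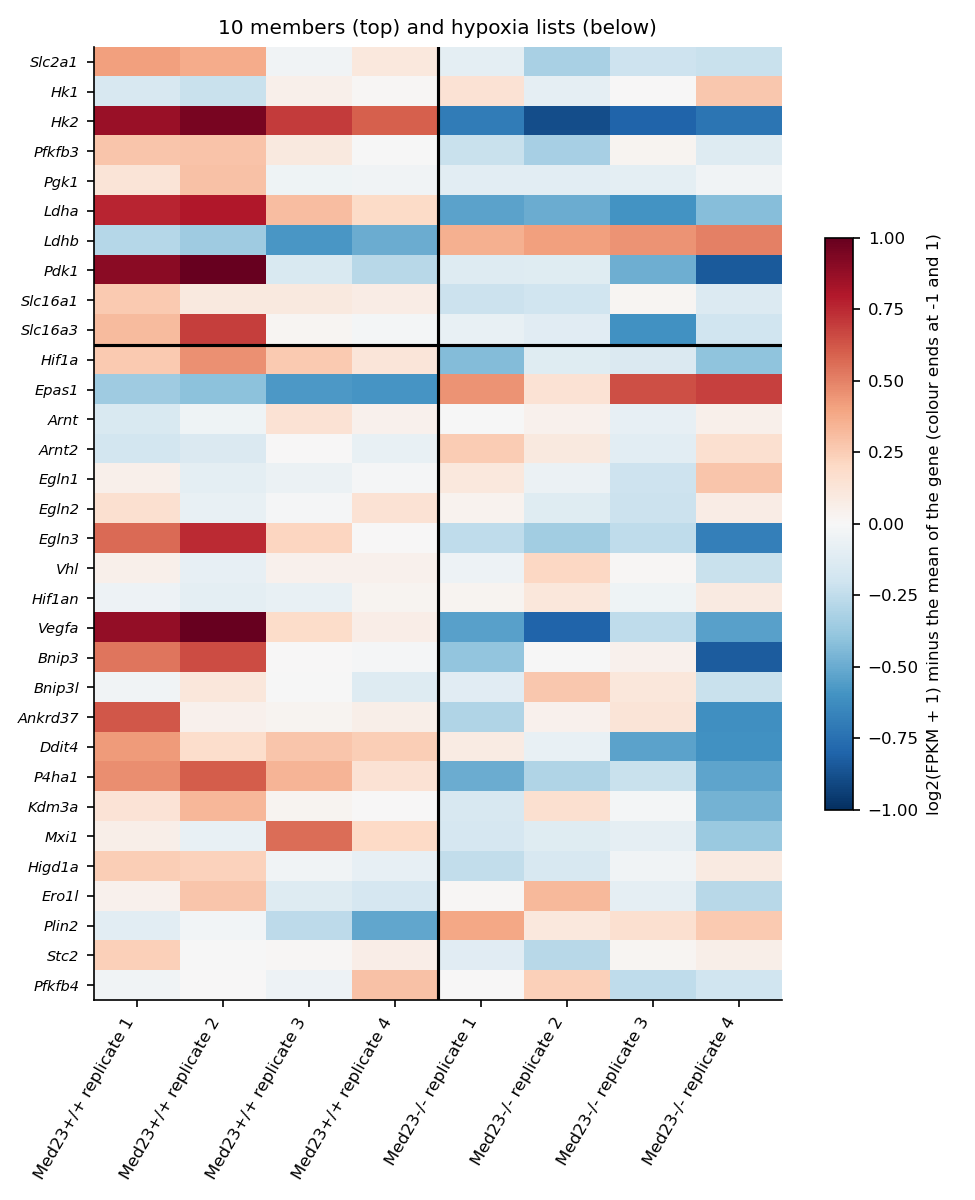
Log2(FPKM + 1) minus the mean of each gene over the 8 libraries (colour, red above and blue below, ending at -1 and 1), with libraries on the x axis and genes on the y axis, the 10 genes on top and the tested hypoxia regulators and targets below. Slc2a1, Ldha, Pdk1, Egln3 and Vegfa are reddest in Med23+/+ replicates 1 and 2, and Ldhb and Epas1 are red in Med23-/- libraries.

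Growth regulators of glycolysis gave 3 genes lower and 1 higher of 15 tested, with a median log2 fold change of -0.05. The shares over all genes tested were 14.1% lower and 15.9% higher. Myc, a direct activator of glycolytic genes, fell from 107 ± 3.45 to 55.8 ± 8.59 FPKM (log2 fold change -0.94, adjusted p = 0.000309). Its relative Mycn rose from 2.65 ± 1.12 to 8.55 ± 1.11 FPKM (log2 fold change 1.43, adjusted p = 0.000534). The glucose-responsive factor partner Mlx and the AMPK subunit Prkaa1 were lower by -0.43 and -0.50 on the log2 scale (adjusted p = 0.00189 and 0.00215).

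Side branches of glycolysis were read in the same fit, in which 14.1% of all genes tested were lower and 15.9% higher. In the pentose phosphate pathway, 2 of 8 genes were lower and 1 was higher, with Taldo1, the transaldolase, at 184 ± 38.7 and 99.2 ± 5.99 FPKM (log2 fold change -0.86, adjusted p = 0.00148) and Rpia at a log2 fold change of 0.44 (adjusted p = 0.0264), a call that was lost without Med23+/+ replicate 2, 3 or 4. In glycogen metabolism, 1 of 8 genes was called, the glycogen synthase Gys1, with a log2 fold change of -0.44 (adjusted p = 0.00140), and Gyg, the glycogen primer and the most abundant of that list, had a log2 fold change of 0.03. In the shuttles that carry reducing equivalents into mitochondria, 4 of 10 genes were lower and 1 was higher. Gpd1 of the glycerol phosphate shuttle rose from 4.18 ± 0.919 to 9.44 ± 2.56 FPKM (log2 fold change 0.99, adjusted p = 0.00431), and Slc25a13 of the aspartate-malate shuttle was lower by -0.41 (adjusted p = 0.0334). Mdh2, the most abundant gene of the shuttles, was lower by -0.29 (adjusted p = 0.0425). The number of shuttle genes lower was 0 to 2 without any 1 of the libraries other than Med23-/- replicate 4, and Slc25a13 and Mdh2 each kept their call in 2 of 8 such fits, while Gpd1 kept it in all 8.

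**Figure D5:**
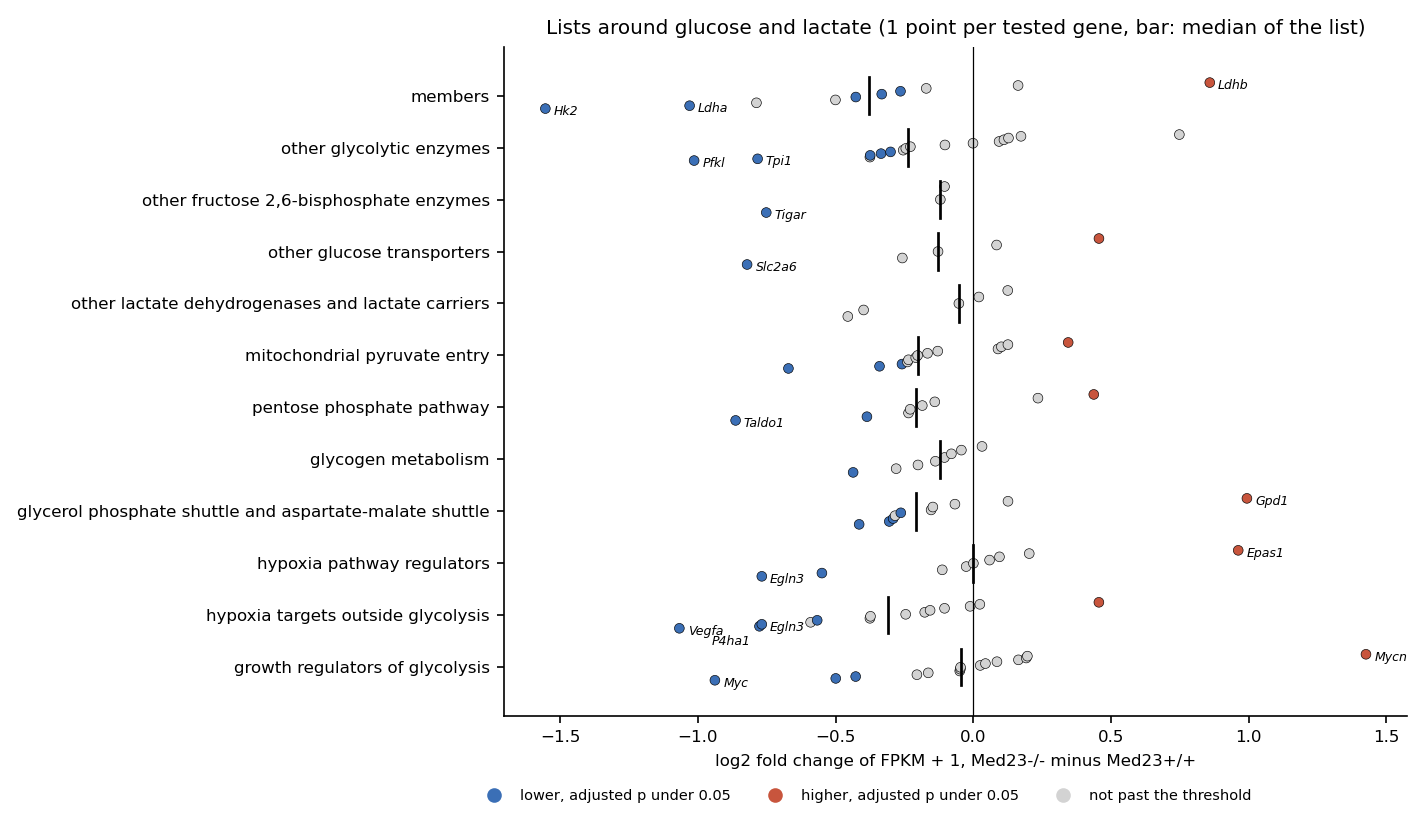
Log2 fold change of FPKM + 1, Med23-/- minus Med23+/+ (x axis), for each tested gene of the 10 followed here (first row, members) and of 11 lists around them (y axis), with a bar at the median of the list and colour by the adjusted p. The rows of other glycolytic enzymes and hypoxia targets hold 5 of 16 and 4 of 14 genes lower, beside 14.1% of all genes tested. Single genes such as Ldhb, Gpd1, Epas1 and Mycn lie far to the right.

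Across all 11 lists together, 25 of 104 genes were lower and 7 were higher in Med23-/- iOLs, with a median log2 fold change of -0.15. The 32 called genes are 30.8% of these 104, beside 30.0% of all genes tested. All 5 oligodendrocyte lineage markers were present in every library. Pdgfra and Cspg4, markers of OPCs, were higher in Med23-/- iOLs by 1.47 and 1.39 on the log2 scale, Sox10 was lower by -0.49 (adjusted p = 0.0203), and Olig1 and Olig2 were not called (log2 fold changes -0.02 and 0.51). Endothelial and microglial markers were near absent, with 7 of 8 and 7 of 9 under 1 FPKM in every library. Median-ratio scaling factors lay between 0.977 and 1.02, and the depth of the libraries is unknown, since the deposited values are not counts.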

How the data were processed

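The authors made libraries from total RNA. After FastQC and Cutadapt, they mapped reads on mm10 by Tophat2 and ran cuffdiff with the options -b (bias correction) and -u (reweighting of fragments that map to several places). Versions, the annotation and the library normalization are not given in the sources used here. The authors deposited FPKM values per library, and 0 library columns were left out. Their columns of genotype means, fold changes, p-values and q-values were not used.

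Values were tested as log2(FPKM + 1), which understates changes of low genes, with limma 3.58.1 in R 4.3.3 (lmFit, eBayes with a trend) on 12328 genes (minimum mean 1 FPKM across 8 libraries). P-values were adjusted by Benjamini-Hochberg over all genes tested, with a threshold of 0.05. Shares within paralogue groups were compared by two-sided exact permutation tests, adjusted over 6. Python 3.11.15 and scipy 1.17.1 were used. The fit was tested on simulated data. FPKM hides the depth of each library. The worth of 1 read, from the spacing of values under 0.3 FPKM, ran from 0.745 to 1.02 relative to Med23+/+ replicate 1.

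The 10 genes and the lists were chosen with earlier results of these data known. Besides Med23 and the 10 genes, named genes are the called genes past 2-fold, the extremes among called genes and the most abundant gene of each list, and the 5 genes most like Hk2, of which 1 is not reported here. Adpgk, Aldoa, Tpi1, Dlat, Pfkm, Pfkp, Pdk2, Pdk3, Slc16a7, P4ha1, Mlx, Prkaa1 and the markers of the oligodendrocyte lineage and of astrocytes were added after their values were seen. Coordinates come from GENCODE vM21 on mm10 and promoter sequences from RefSeq on GRCm38.p6, with all 10 genes matched. Alternatives were another pseudocount, other filters, quantile normalization, median-ratio scaling, no trend, array weights, the replicate block, the pairs of replicates as a covariate and each library left out.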

Additional observations from a re-analysis of the deposited data

Results flagged for a closer look

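In 9 of 96 groups of 4 libraries tested by Dixon's ratio, the highest or lowest library stood apart from the other 3, and chance gives this in about 1 in 20 groups. Among the 10 genes, Pgk1 was highest in Med23-/- replicate 4 (199.7 FPKM, the others 190.2 to 191), and Slc16a1 was highest in Med23+/+ replicate 1 (12.8 FPKM, the others 11.2 to 11.3). The share of Hk2 in both hexokinases was lowest in Med23-/- replicate 4 (6.71%, the others 7.41 to 7.53%). Of the other named genes, Slc2a3 was highest in Med23+/+ replicate 4 (9.59 FPKM), Pcx in Med23+/+ replicate 1 (17.6 FPKM), Pdp2 and Pdhb in Med23+/+ replicate 3 (16.5 and 84.3 FPKM) and Mtap in Med23+/+ replicate 2 (72.6 FPKM), and Myc was lowest in Med23-/- replicate 3 (43.2 FPKM).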

How the results depend on the processing

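Hk2, Ldha and Slc2a1 stayed lower and Ldhb stayed higher past the adjusted p in all 10 alternative settings and in all 8 fits that left out a library. The number of genes lower among the 10 was 5, but 3 without the filter on low values and 3 with Xist over 1 FPKM (Med23+/+ replicate 1 and Med23-/- replicate 2) as a covariate, a setting chosen after seeing the data, and Pfkfb3 and Slc16a1 were the calls lost. Leaving out a library gave 5 lower only without Med23+/+ replicate 4, with Pdk1 in place of Slc16a1, or without Med23-/- replicate 3. All other such fits gave 3 lower. The number past 2-fold was 1 to 3 with a library left out. Quantile normalization and array weights each gave 1 past 2-fold, with Ldha under that margin and still past the adjusted p. For the 11 lists together, the number higher was 4 to 9 with a library left out, the lowest without Med23+/+ replicate 3 or 4. Of all genes tested, 1281 rather than 1957 were higher with a minimum mean of 5 FPKM, where fewer genes are tested. With 1 replicate left out, 1225 to 1667 of all genes were lower and 1556 to 1864 higher. The log2 fold change of Bsg turned to -0.00456 with array weights and ran from -0.0381 to 0.0659 with a library left out, below 0 without Med23+/+ replicate 2 or Med23-/- replicate 4, and that of Gyg ran from -0.0281 to 0.0728, below 0 without Med23+/+ replicate 3. The cause was not tested. Whether replicate numbers pair the samples is not stated in the sources used here. Same-numbered libraries of the genotypes had correlations of their deviations of 0.130, -0.0960, -0.0260 and 0.159. Libraries with unlike numbers had correlations from -0.179 to 0.162, so these values do not settle it. With the replicate block the 10 genes again gave 5 lower and 1 higher, with Pdk1 (adjusted p = 0.0115) and Slc16a3 (0.0404) in place of Pfkfb3 (0.0679) and Slc16a1 (0.0613), and all genes gave 1835 lower and 2085 higher. Blocked shares were compared by exact sign flips of 4 pairs, whose smallest p is 0.125. Slc16a3 was also past the adjusted p with quantile normalization (0.0267). Of the other named genes, Gpi1, Pdhb, Rpia, Mdh2, Plin2 and Ddit4 lost their call under quantile normalization, Rpia and Mdh2 also without the filter, and Slc25a13 under the replicate block. With a library left out, Slc25a13 and Mdh2 kept the call in 2 of 8 fits, Plin2 in 4, Rpia in 5, Pcx in 6 and Pdhb in 7, all but the fit without Med23+/+ replicate 3. Replicates 1 and 2 against 3 and 4 as a covariate, a split chosen with the pattern of the Med23+/+ libraries known, gave 7 of the 10 genes lower, with 1849 of all genes lower and 2094 higher, and is no independent support for these calls. Over single genes and shares in all settings, 50 values lost the call and 6 gained it. Without counts, the precision of low genes such as Slc16a3 is not known.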
